A study of Mus musculus with 2 samples.

Results

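Cytosine methylation in mouse DNA is written by the methyltransferases Dnmt1, Dnmt3a and Dnmt3b with the cofactors Dnmt3l and Uhrf1, and its removal is started by the dioxygenases Tet1, Tet2 and Tet3. These 8 genes were taken by symbol from the 32285 genes counted in each library, and all 8 had counts in both. The series profiled whole testis of C57BL/6 mice at 13 days with 10x single-cell libraries, 1 for each genotype. The control animals carried 1 floxed and 1 wild-type copy of Psma7 (F/+), and their label gives no Cre. The knockout (F/-;Stra8-Cre KI/+) had 1 floxed and 1 null copy in every cell, and a Cre driven from the Stra8 locus, which acts in germ cells from the spermatogonial stages on. Psma7 encodes a subunit of the 20S proteasome. On mm10 (GENCODE M21) the genes lie at chr9:20907209-20959888 on the minus strand (Dnmt1, ENSMUSG00000004099), chr17:56303321-56323486 plus (Uhrf1, ENSMUSG00000001228), chr12:3806007-3914443 plus (Dnmt3a, ENSMUSG00000020661) and chr2:153649450-153687730 plus (Dnmt3b, ENSMUSG00000027478). Dnmt3l (ENSMUSG00000000730) is at chr10:78041947-78063622 plus and Tet1 (ENSMUSG00000047146) at chr10:62804570-62908996 minus. Tet2 (ENSMUSG00000040943) is at chr3:133463679-133545139 minus and Tet3 (ENSMUSG00000034832) at chr6:83362373-83459084 minus. The labels do not say how many animals were pooled into a library, and libraries without replicates allow no test between genotypes. Every interval below is a 95% interval that covers counting error only.

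DNMT1, brought to newly replicated DNA by UHRF1, copies the mark to the daughter strand, while DNMT3A and DNMT3B methylate sites that carried none. DNMT3L has no catalytic activity and stimulates both de novo enzymes. The TET enzymes oxidise 5-methylcytosine, which repair or replication can then replace by plain cytosine. In male germ cells most de novo methylation is laid down before birth, in prospermatogonia, when Dnmt3l is high, and spermatogonia then maintain it through many divisions.

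The promoters of the pair that acts at replication share a sequence word, and it is shown here because Dnmt1 and Uhrf1 were also the pair whose transcripts varied together in these data. Windows of 300 bases, from 250 before to 50 after each annotated start, were taken from RefSeq on GRCm38.p6. All 8 genes had at least 1 window. They were searched on both strands for the E2F-type words TTTCGCGC, TTTGGCGC, TTTCCCGC and TTTGCCGC, which are of one length, so that none contains another. The stretches below run 5′ to 3′ on the strand of the gene, with the matched word, or its complement, in capitals. The Uhrf1 stretch lies at chr17:56304063-56304312 on the plus strand and ends at the start site. Both Dnmt1 stretches belong to 1 of its 3 windows, on the minus strand, at chr9:20952825-20952852, beginning 229 bases before the start, and at chr9:20952574-20952601, beginning 22 bases after it. They are kept short because annotated untranslated exon parts overlap them.
Uhrf1: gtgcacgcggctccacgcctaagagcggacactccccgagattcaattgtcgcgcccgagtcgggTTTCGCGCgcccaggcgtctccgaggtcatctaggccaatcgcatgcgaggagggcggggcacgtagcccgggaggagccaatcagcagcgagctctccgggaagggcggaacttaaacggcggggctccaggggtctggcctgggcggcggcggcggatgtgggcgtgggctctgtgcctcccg
Dnmt1, before the start: gtttccgcgcGCGCGAAAaagccggggt
Dnmt1, after the start: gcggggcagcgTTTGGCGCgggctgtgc
One of these words occurred in 744 of 32851 RefSeq windows (2.26%). It occurred in 1 of 2 Uhrf1 windows and in 1 of 3 Dnmt1 windows, and in none of the windows of the other 6 genes. A match describes the letters and is not evidence of binding.

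The genes of the de novo pathway differ in a second feature, CpG content, and the windows of Dnmt3b and Dnmt3l are shown because Dnmt3b had its peak in spermatogonia and Dnmt3l was hardly detected. CpG sites are in capitals. The Dnmt3b stretch lies at chr2:153649199-153649448 and the Dnmt3l stretch, from 1 of its 3 windows, at chr10:78055085-78055334, both on the plus strand and ending at the start site.
Dnmt3b: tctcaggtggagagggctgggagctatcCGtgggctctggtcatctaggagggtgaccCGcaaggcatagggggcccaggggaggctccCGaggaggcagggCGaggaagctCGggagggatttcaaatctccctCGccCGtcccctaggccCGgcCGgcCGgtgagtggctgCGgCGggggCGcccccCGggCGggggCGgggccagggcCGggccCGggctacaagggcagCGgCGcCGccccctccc
Dnmt3l: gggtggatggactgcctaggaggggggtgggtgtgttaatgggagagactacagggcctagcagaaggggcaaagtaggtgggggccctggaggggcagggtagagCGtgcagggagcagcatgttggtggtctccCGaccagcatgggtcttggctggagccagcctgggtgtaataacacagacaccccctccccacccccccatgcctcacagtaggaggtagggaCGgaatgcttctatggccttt
The whole Dnmt3b window held 30 CpG sites and the 3 Dnmt3l windows held 3 to 6, against a median of 7 over all RefSeq windows. The Dnmt3l window shown is the one with 3. The windows of Tet1, Tet2 and Tet3 held 17, 57 and 22. Those of Dnmt3a held 18 to 47, those of Dnmt1 2 to 33 and those of Uhrf1 12 to 33. A link between CpG content and level was not tested.

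After calling cells and removing doublets, 10737 control and 10589 knockout cells were used, with medians of 8046 and 5395 UMIs, and 28 cell barcodes occurred in both libraries. They formed 28 clusters, which were named from marker genes, so that a class name below means resemblance in transcripts. Neither the 8 genes nor their pathway partners took part in the clustering. Levels are the UMIs of a gene as a share of all UMIs of the class, on the usual CPM scale, counted at the 3′ end and not divided by gene length, so they are compared between cells and not between genes. As a check of the labels, Psma7 in undifferentiated spermatogonia stood at 243 CPM (control) and 94.5 CPM (knockout), and in differentiating spermatogonia at 298 and 51.7. Psma7 was lower in somatic cells too, at 239.5 and 97.2 CPM, where each cell of the knockout carries the null copy. Relative to the control, undifferentiated spermatogonia were about as low as somatic cells, so Psma7 counts show no further drop in that class. Differentiating spermatogonia were lower still, at 17.3% of the control. The counted 3′ end may lie outside the deleted part of the gene. There were 3780 germ cells of the control and 400 of the knockout, and the clusters at meiotic entry held 0 knockout cells. Fewer cells of a type and less RNA per cell cannot be told apart in a sum over all cells, so levels are given by class.

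Germ cells and somatic cells of the control differed in nearly the whole set. Dnmt1, Uhrf1, Dnmt3b and Dnmt3l were higher in germ cells, Dnmt3a, Tet1 and Tet2 were higher in somatic cells, and Tet3 was close to even. Dnmt1 stood at 175 CPM in germ cells and 29.6 in somatic cells, a log2 ratio of 2.56 (2.49 to 2.64). For Uhrf1 the levels were 106 and 12.1 CPM (3.13, interval 3.02 to 3.25), the widest gap among the 8 genes in that direction. Dnmt3b, 58.8 and 18.2 CPM, was 1.69 higher on the log2 scale (1.59 to 1.79). In the other direction, Tet2 was at 7.76 CPM in germ cells and 65.9 in somatic cells, a log2 ratio of -3.08 (-3.23 to -2.94), and Tet1 at 6.79 and 35.5 CPM (-2.38). Dnmt3a, at 66.2 and 164 CPM, had a ratio of -1.30 (-1.36 to -1.25). Tet3, at 158 and 151 CPM, had a ratio of 0.06 (0.01 to 0.10). In this comparison 7 of the 8 genes were at least 2-fold apart, and so were 57.8% of the 20008 genes measured, so the count alone does not set these genes apart.

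**Figure D1:**
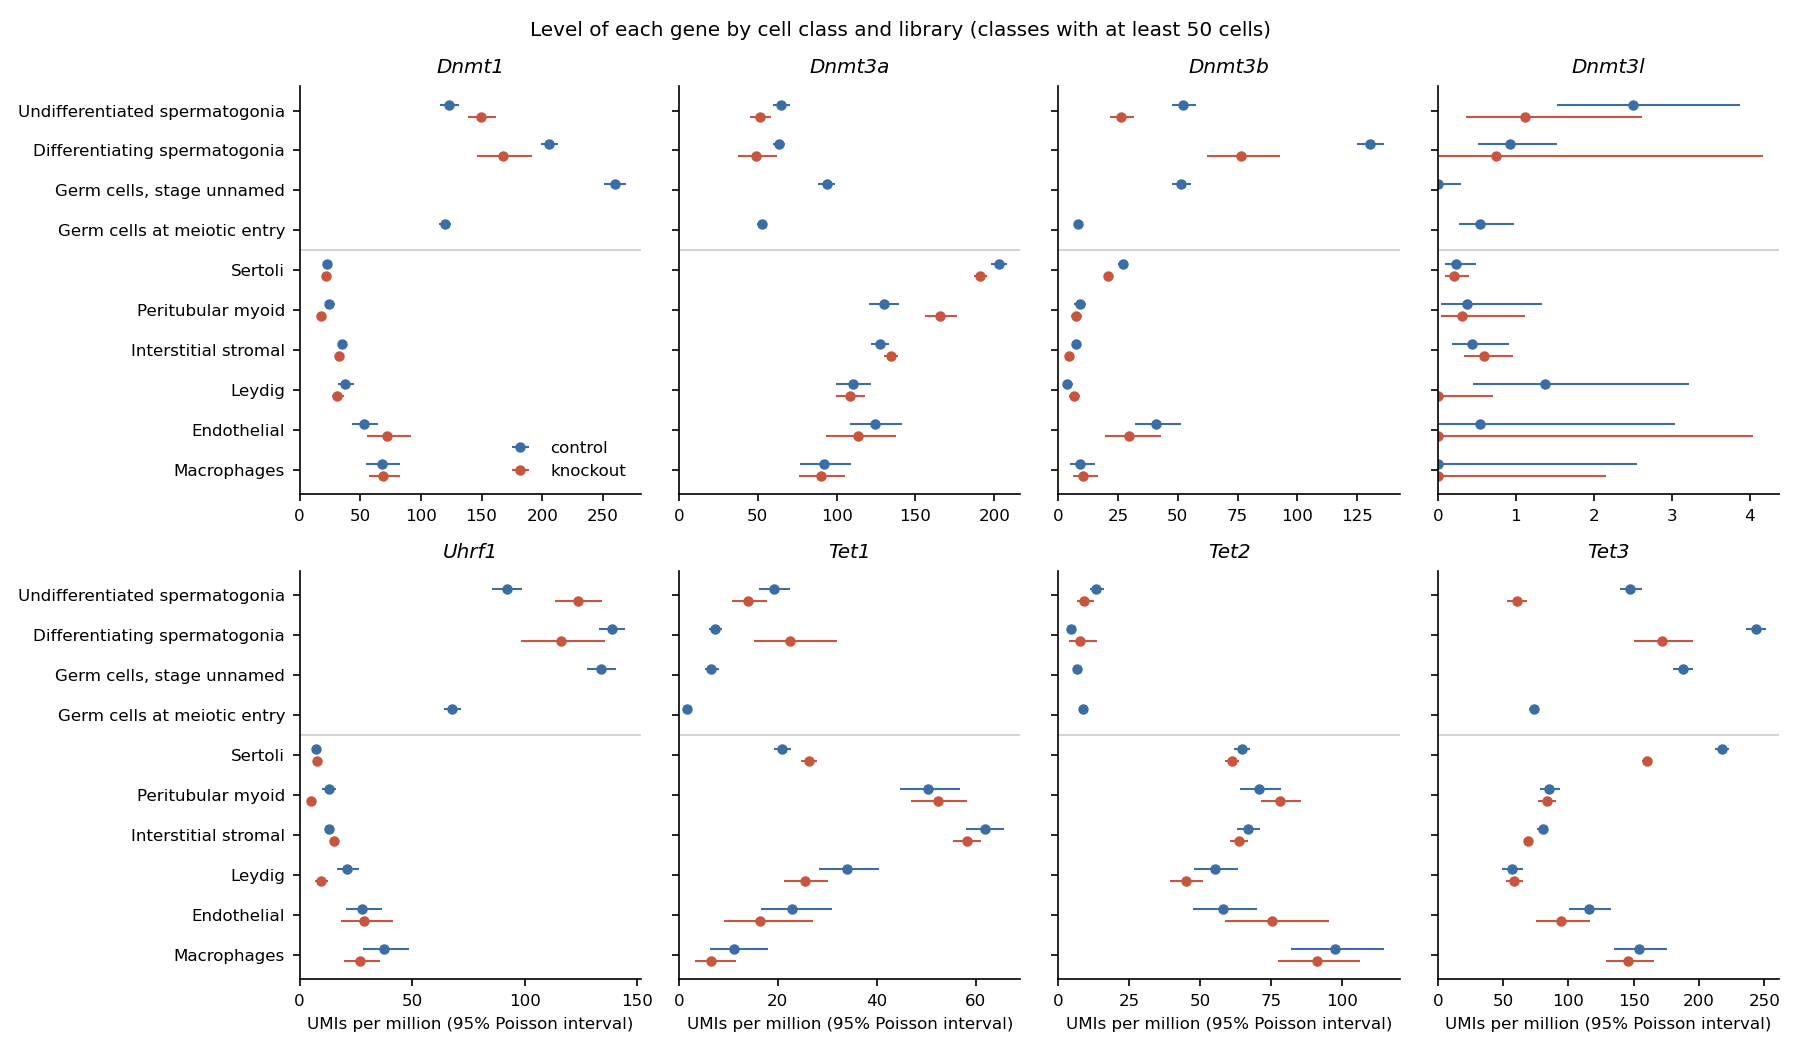
Level of each of the 8 genes in CPM (horizontal axis, a separate linear scale for each gene) in 10 cell classes, in the control (blue) and the knockout library (red). Points are summed levels with 95% Poisson intervals, drawn for classes with at least 50 cells in the library. Dnmt1 and Uhrf1 are high in the germ classes above the grey line, Tet1 and Tet2 in the somatic classes below it, and Dnmt3a and Tet3 reach 203 and 217 CPM in control Sertoli cells.

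Within the soma each gene had its own order of cell types. Dnmt3a and Tet3 were highest in Sertoli cells, the nurse cells of the tubule, at 203 and 217 CPM in the control. Macrophages had the lowest somatic Dnmt3a, at 91.9 CPM, and Leydig cells, which make testosterone, the lowest Tet3, at 56.9 CPM. Tet2, a gene best known from blood cell formation, was highest in macrophages at 97.5 CPM (control) and 91.1 CPM (knockout), and between 45.0 and 78.4 CPM in the other 5 somatic classes of both libraries. Tet1 was highest in interstitial stromal cells, at 61.8 and 58.2 CPM, followed by peritubular myoid cells, the contractile cells around the tubule, at 50.4 and 52.3. Macrophages had 11.1 and 6.43 CPM of Tet1, the lowest somatic values in each library. Endothelial cells held the highest somatic Dnmt3b, 41.0 and 29.6 CPM, followed by Sertoli cells at 26.9 and 20.9, while stromal, myoid, Leydig and macrophage values lay between 3.59 and 10.5. The orders of Tet1 and Dnmt3b were thus the same at the top in both libraries.

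Dnmt3l was barely detected in any class. It gave 70 UMIs over all control cells and 33 over all knockout cells, or 0.604 and 0.363 CPM. Its highest level was 2.51 CPM (1.53 to 3.88), in the undifferentiated spermatogonia of the control, from 20 UMIs in 18 cells. The stage-unnamed germ class of the control had 0 UMIs among 12264701, which allows a level of up to 0.245 CPM. Dnmt3l overlaps Aire on the other strand, and whether the counting used strand is not given in the sources used here. The same holds for Dnmt3a, Dnmt3b, Tet2 and Tet3, which overlap noncoding genes on the other strand.

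Next, the course along male germ cell development was read in the control, from 5 germ cell clusters put in order by their markers. A cluster led by Gfra1, a receptor of undifferentiated spermatogonia, held 527 cells. One led by Lhx8, with Kit and Stra8 raised, was the larger cluster of the differentiating class and held 755 cells. Then came 921 cells led by Esx1 and Dmrtb1, whose stage could not be named, 930 cells led by Mgat5b, Stra8 and Mei1 at meiotic entry, and 419 cells led by Meiob, Spo11 and Sycp3, genes of meiotic recombination and chromosome pairing. A sixth cluster of 228 cells with a median of 1835 UMIs also belonged to the differentiating class.

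Dnmt1 was higher in each step over the first 3 clusters, from 123 CPM (116 to 131) in the Gfra1 cluster through 202 in the Lhx8 cluster to 260 (251 to 269) in the Esx1 cluster, and was lower again at 166 and 43.6 CPM in the clusters at meiotic entry. Uhrf1 went from 92.1 to 138 and 134 CPM and then to 72.8 and 59.5. The last step separated the pair, because between the Mgat5b and Meiob clusters the log2 ratio of Dnmt1 was -1.92 (-2.10 to -1.76) while the ratio of Uhrf1 was -0.29 (-0.46 to -0.13). Of the de novo genes, Dnmt3b had a single peak, with 52.3 CPM in the Gfra1 cluster, 132.5 (127 to 138) in the Lhx8 cluster, 51.4 in the Esx1 cluster, 10.7 in the Mgat5b cluster and 3.86 in the Meiob cluster. Dnmt3a took another path. Its levels were 64.9 and 64.2 CPM in the first 2 clusters, 93.6 (88.3 to 99.2) in the Esx1 cluster and 75.8 in the Mgat5b cluster, so it stayed up through the first meiotic cluster, where Dnmt3b was already low, and stood at 13.3 CPM in the Meiob cluster.

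The TET genes also went separate ways. Tet3, the TET enzyme that acts on the paternal genome after fertilisation, was at 148 CPM in the Gfra1 cluster, 252 (245 to 260) in the Lhx8 cluster, 187 in the Esx1 cluster, 113 in the Mgat5b cluster and 9.05 in the Meiob cluster. The last step had a log2 ratio of -3.63 (-4.01 to -3.29), the widest between neighbouring clusters among genes with UMIs in both. Tet1 was highest at the start, with 19.2 CPM, and was at 7.56, 6.52, 1.75 and 1.46 CPM afterwards. Of the 153 Tet1 UMIs in the Gfra1 cluster, 37 lay in a single cell, and without them the level was 14.6 CPM. In the Esx1 cluster 30 of 80 lay in a single cell, and without them the level was 4.08 CPM. Tet2 was low in every germ cluster, at 13.4 CPM in the Gfra1 cluster, 4.55 in the Lhx8 cluster and 6.69, 9.22 and 8.25 after it. Over the 4 steps in order, 4, 2, 3 and 4 of the 8 genes were at least 2-fold apart, against 16.9%, 29.3%, 27.8% and 28.0% of all genes measured, so a step of this size was common. These counts include Dnmt3l, with 20, 14, 0 and 5 UMIs in the first 4 clusters, whose ratios into and out of the Esx1 cluster rest on a count of 0 with 0.5 added, while the share over all genes covers those with at least 30 UMIs. The cluster of few UMIs differed from the Lhx8 cluster of its own class, with 298 CPM of Dnmt1 and 167 of Uhrf1 but 16.7 CPM of Tet3, from 10 UMIs, and 0 UMIs of Tet1.

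**Figure D2:**
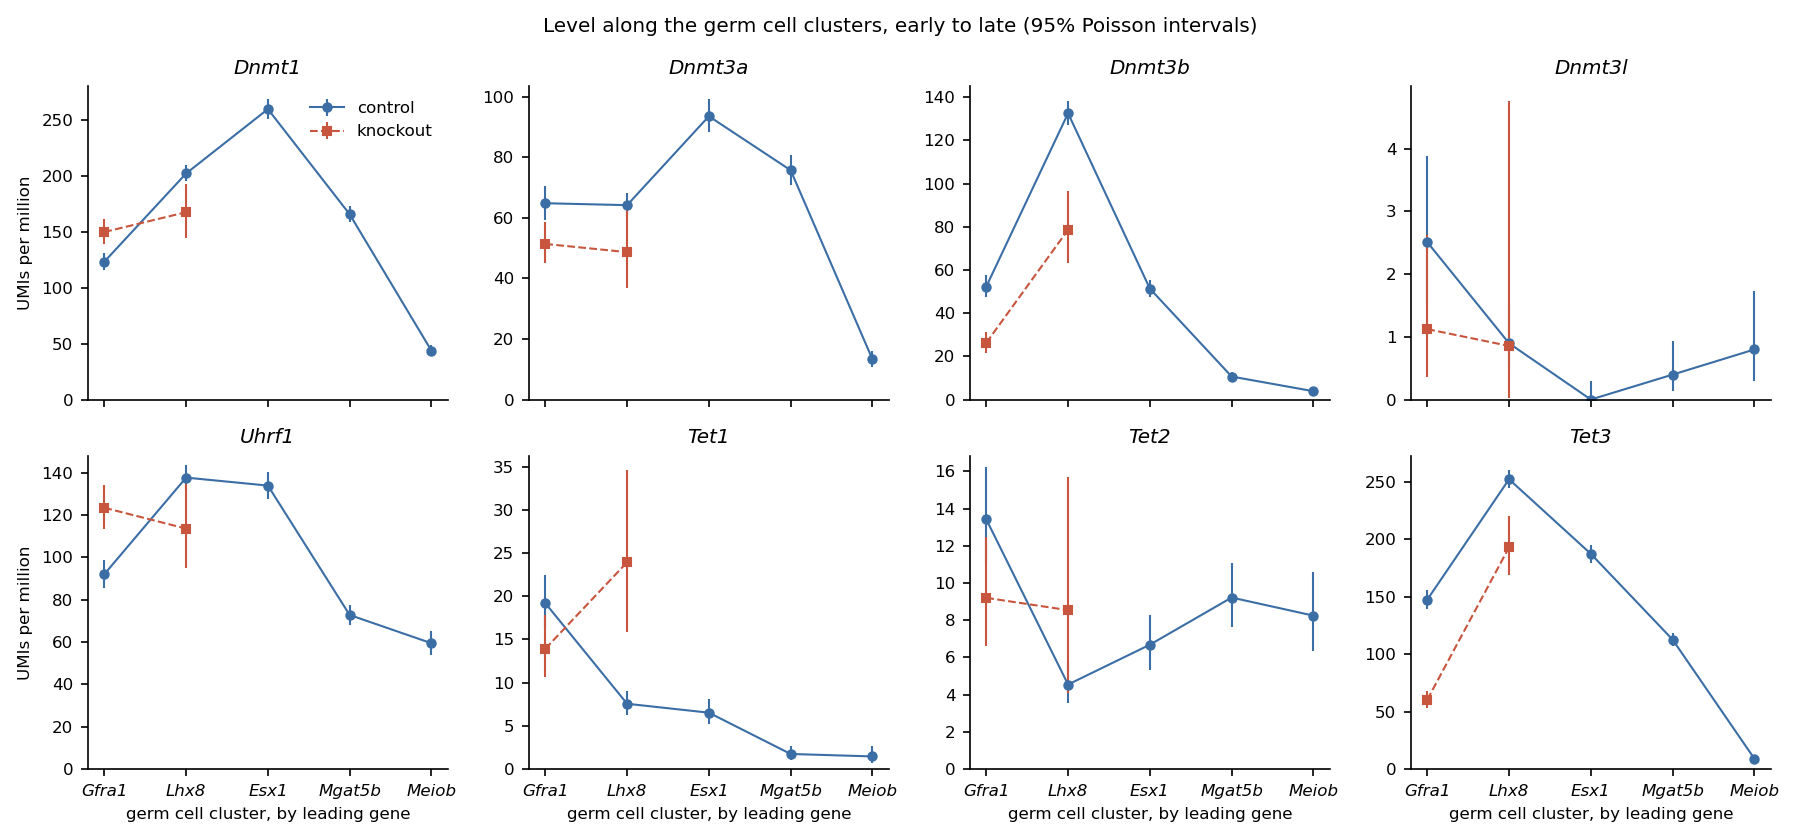
Level of each gene in CPM (vertical axis, linear, a separate scale for each gene) in the germ cell clusters in developmental order, named by a leading gene, with 95% Poisson intervals. Blue points joined by lines are the control; red squares are the knockout library, which had 282 cells in the Gfra1 cluster and 47 in the Lhx8 cluster. In the control Dnmt3b and Tet3 peak in the Lhx8 cluster at 132.5 and 252 CPM, Dnmt1 and Dnmt3a in the Esx1 cluster at 260 and 93.6 CPM.

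By class, differentiating over undifferentiated spermatogonia of the control, 4 of the 8 genes were at least 2-fold apart, against 17.1% of the 16475 genes measured. Dnmt3b was higher, with a log2 ratio of 1.32 (1.17 to 1.47), and Dnmt3l, Tet1 and Tet2 were lower, at -1.43, -1.40 and -1.59. Dnmt1, Tet3 and Uhrf1 were higher by 0.74, 0.72 and 0.59 and Dnmt3a was at -0.04 (-0.19 to 0.12), while the median gene stood at 0.00. From differentiating spermatogonia to meiotic entry, 4 of the 8 were at least 2-fold lower and 0 higher. A large share of all genes, 50.7% of 16312, was past 2-fold in that step, 40.3% lower, and the median gene was at -0.62. Relative to that median, Dnmt3b was at -3.38, Tet1 at -1.51, Tet3 at -1.10, Uhrf1 at -0.41 and Tet2 at 1.61, so that Dnmt3b, Tet1 and Tet3 lay below the typical gene and Tet2 above it.

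Of the partner genes, the 7 that work with maintenance methylation had 0 past 2-fold between the undifferentiated and differentiating classes of the control, with a median of 0.20, where 17.1% of all genes were past 2-fold and the median gene stood at 0.00. The chromatin remodeller Hells was the highest, 293 and 484 CPM (0.72), followed by the DNA ligase Lig1 at 0.66, and the lowest were Uhrf2, a relative of Uhrf1, at -0.58 and Cdca7l at -0.26. Among 8 genes that target de novo methylation, 1 was at least 2-fold higher and 3 lower, with a median of 0.04. Spocd1 and Morc1, both of the pathway that silences transposons in the male germ line, had 19.9 and 178 CPM in the undifferentiated and 3.58 and 50.5 CPM in the differentiating class. Dnmt3c, the rodent methyltransferase of young transposons, had 15 and 80 UMIs, or 1.88 and 4.93 CPM, and Trim28, a corepressor, was at 101 and 129 CPM. Among 12 measured genes of demethylation and repair, 2 were past 2-fold higher and 2 lower. Gadd45b went from 23.6 to 104 CPM and Dppa3, a factor that protects methylation after fertilisation, from 3.76 to 15.2, while Ogt, the glycosyltransferase that binds TET proteins, went from 215 to 68.2 and Cxxc4 from 9.41 to 4.07. Of the methyl-CpG readers, 0 of 8 were past 2-fold.

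How did the 8 genes compare between genotypes in the same class? In undifferentiated spermatogonia (527 control and 282 knockout cells, median depths of 13369 and 13602 UMIs) the copying pair, Dnmt1 and Uhrf1, was higher in the knockout library and the other 6 genes were lower. Tet3 and Dnmt3b were furthest apart among the genes with more than 30 UMIs. Tet3 stood at 148 CPM (139 to 156) in control cells and 60.4 CPM (53.4 to 68.1) in knockout cells, giving a log2 ratio of -1.29 (-1.49 to -1.10). For Dnmt3b the levels were 52.3 CPM (47.4 to 57.6) and 26.3 CPM (21.7 to 31.5), a ratio of -0.99 (-1.30 to -0.69). The intervals of the libraries do not overlap for either gene, nor for Dnmt1, Uhrf1 and Dnmt3a. The share of all genes with intervals apart was not counted. Dnmt1 was at 123 and 150 CPM (0.28, interval 0.14 to 0.42) and Uhrf1 at 92.1 and 123 CPM (0.42, interval 0.26 to 0.58). A list of 20 replication genes summed to 1430 CPM in control and 1606 CPM in knockout cells of this class, with 14 of the 20 higher in the knockout library. Mki67, a gene of dividing cells, stood at 77.3 and 134 CPM. The part of cell division in the ratios was not tested. Dnmt3a had 64.9 and 51.4 CPM (-0.33, interval -0.57 to -0.11), Tet2 13.4 and 9.21 (-0.53, interval -1.10 to -0.01) and Tet1 19.2 and 13.9 (-0.46). Without the highest cell of each library, the Tet1 ratio was -0.31 (-0.82 to 0.17). Dnmt3l rested on 20 and 5 UMIs, and its ratio of -1.06 has an interval from -2.93 to 0.30.

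In that class 2 of the 8 genes were at least 2-fold apart, Tet3 and Dnmt3l, both lower, against 9.01% of 15044 genes in either direction and 3.11% lower. The median of the 8 ratios was -0.50 and the median gene stood at 0.05. Shares of cells with a UMI had the same order for Tet3 and Dnmt3b. With each cell thinned to 3000 UMIs, Tet3 was found in 29.0% of 500 control cells (25.1 to 33.2) and 14.4% of 271 knockout cells (10.4 to 19.1), and Dnmt3b in 16.4% (13.3 to 19.9) and 7.75% (4.86 to 11.6). Before thinning, the shares were 63.9% and 43.3% of cells for Tet3, and 42.7% and 28.7% for Dnmt3b. As a background, stromal cells, with little Dnmt3b, had a Dnmt3b UMI in 1.55% of thinned control cells and 1.28% of thinned knockout cells, at median depths of 9029 and 12715 UMIs, so both spermatogonial shares lie above it. Thinned Sertoli cells had shares of 7.66% (control) and 5.57% (knockout), and the interval of the knockout spermatogonia includes both. Every class described had Tet3 UMIs, so no background share is given for it.

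Stage markers differed in the same class, and the position of the cells along development cannot be fully told apart from the genotype. The control cells had more of the markers of later cells, with Stra8 at 94.3 CPM against 43.3 in the knockout library, Kit at 33.5 against 20.0 and Sohlh1 at 149 against 78.4. The knockout carries its Cre at the Stra8 locus, so stage and the altered allele cannot be told apart in Stra8 counts. The same limit applies to the subset below that is chosen by Stra8. Early markers went both ways, with Gfra1 at 262 and 368 CPM and Id4 at 43.0 and 101, but Zbtb16 at 593 and 386. Summed over the whole lists, the 19 undifferentiated markers stood at 1637 and 1533 CPM and the 14 differentiating markers at 1571 and 1330. In the control Tet3 and Dnmt3b were both higher in the Lhx8 than in the Gfra1 cluster, at 252 and 148 CPM for Tet3 and 132.5 and 52.3 for Dnmt3b. Both were far lower in the Meiob cluster, at 9.05 and 3.86 CPM. In the differentiating cluster of few UMIs they stood at 16.7 and 76.6 CPM. Among cells with a Gfra1 UMI, 336 of the control and 223 of the knockout, Tet3 had a ratio of -1.32 and Dnmt3b of -0.94. Among cells with no UMI of Kit or Stra8, 302 and 186, the ratios were -1.45 and -1.13. These subsets were chosen after the data had been seen, and the part of stage in the ratios was not tested. Sertoli markers, summed over 18 genes, stood at 317 CPM in this class of the control and 586 CPM in that of the knockout library, and their part in the ratios was not tested. Knockout Sertoli cells held 160 CPM of Tet3, above these spermatogonia, and 20.9 CPM of Dnmt3b, below them.

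**Figure D3:**
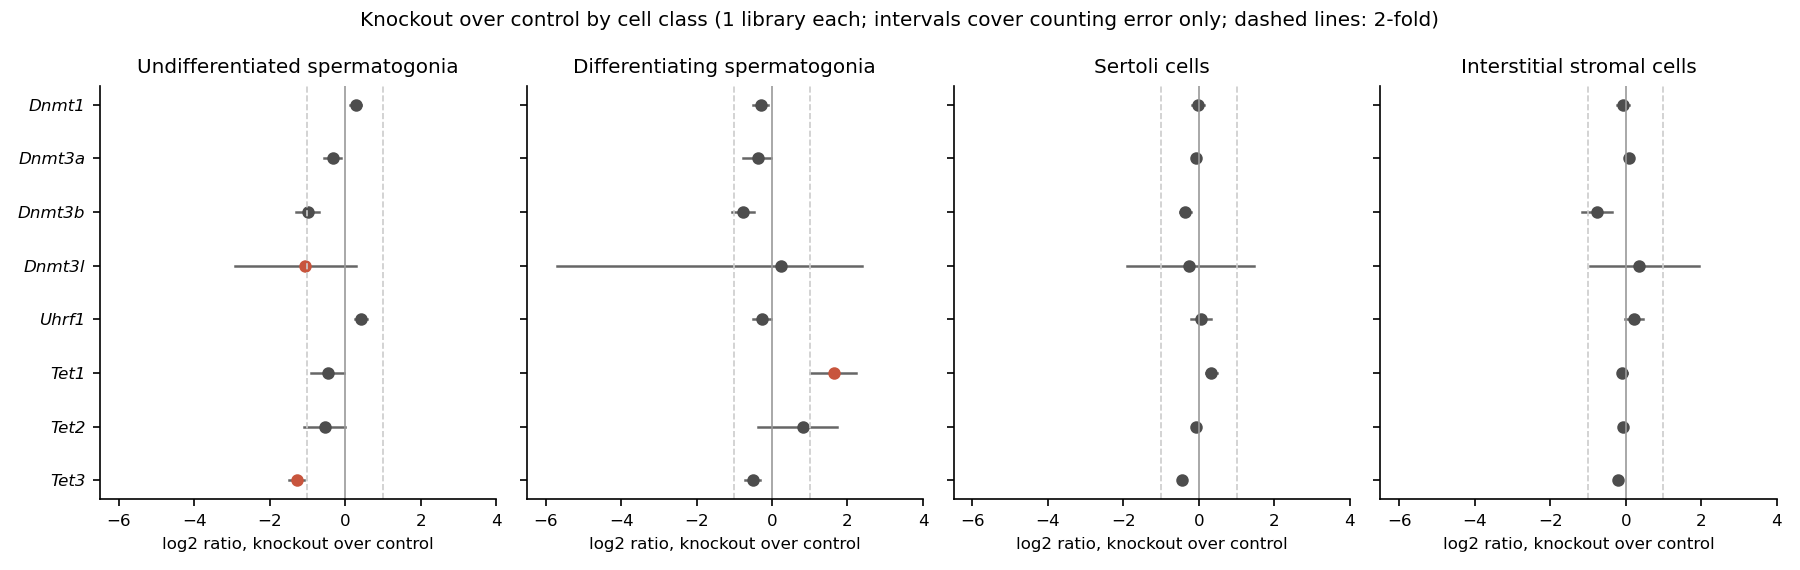
Log2 ratio of knockout over control for the 8 genes in 4 cell classes, with 95% conditional intervals that cover counting error only. Dashed lines mark 2-fold and red points lie past it. Tet3 at -1.29 and Dnmt3l at -1.06 in undifferentiated spermatogonia and Tet1 at 1.64 in differentiating spermatogonia are the points past 2-fold, and the wide bars of Dnmt3l come from few UMIs.

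Differentiating spermatogonia were scarce in the knockout library, 104 cells against 983, with median depths of 6880 and 15528 UMIs. Of these, 57 and 228 belonged to the cluster of few UMIs. Dnmt1, Uhrf1, Dnmt3a, Dnmt3b and Tet3 were lower in the knockout library. Sertoli markers, summed over 18 genes, stood at 288 and 615 CPM, and their part was not tested. Dnmt3b was at 130 CPM (control) and 76.4 CPM (knockout) (-0.77, interval -1.07 to -0.49) and Tet3 at 244 and 171 CPM (-0.50, interval -0.71 to -0.31). Dnmt1 stood at 206 and 168 CPM (-0.29), Uhrf1 at 139 and 116 (-0.25) and Dnmt3a at 63.3 and 48.7 (-0.37). In the cluster of few UMIs the knockout library had 3 UMIs of Tet3. In the Lhx8 cluster alone, 755 and 47 cells, Tet3 was at 252 and 193 CPM and Dnmt3b at 132.5 and 78.6. The knockout library thus had the order of stages of the control for both genes, with higher levels in the Lhx8 than in the Gfra1 cluster. Within that library the differentiating over undifferentiated ratio was 1.51 for Tet3 (1.24 to 1.77) and 1.54 for Dnmt3b (1.14 to 1.94), the 2 genes of the 8 past 2-fold, against 14.5% of 13084 genes. For Dnmt1 and Uhrf1 it was 0.17 and -0.09.

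Tet1 went the other way in this class, at 7.28 CPM (control) and 22.5 CPM (knockout) (1.64, interval 1.00 to 2.21), the only gene of the 8 past 2-fold, against 11.2% of 15395 genes. This value rests on few cells. The 30 Tet1 UMIs of the knockout library lay in 9 cells, 15 of them in 1 cell, and leaving out the highest cell of each library gave a ratio of 0.74 (-0.18 to 1.48). With cells thinned to 3000 UMIs, Tet1 was found in 2 of 65 knockout cells (3.08%) and 17 of 805 control cells (2.11%). Tet2 rested on 10 UMIs in the knockout library, with a ratio of 0.81 (-0.37 to 1.72).

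The partner genes were compared between genotypes in undifferentiated spermatogonia, where 9.01% of all genes were past 2-fold, 3.11% lower, and the median gene stood at 0.05. Of 7 measured genes of transposon silencing and de novo targeting, 2 were at least 2-fold lower, with a median of -0.21. Spocd1 was at 19.9 and 6.74 CPM (-1.55) and Piwil4, the nuclear Piwi protein that guides methylation to transposons, at 28.7 and 12.1 CPM (-1.23, interval -1.70 to -0.81). Spocd1 and Piwil4 were also lower in later cells of the control. Dnmt3b and Tet3 were higher there in the Lhx8 than in the Gfra1 cluster, and below the Lhx8 cluster in each later one. The 7 maintenance partners had a median of 0.24 and 0 past 2-fold, with Pcna at 92.0 and 123 CPM (0.42) and Lig1 at 102 and 123 CPM (0.27) the highest. Of 12 demethylation and repair genes, Dppa3 was past 2-fold, from 30 and 1 UMIs (-3.51, interval -9.42 to -1.48), and Gadd45a and Gadd45b, stress-induced genes, were higher at 0.72 and 0.87. Ogt stood at 215 and 132.5 CPM (-0.70). Mat2a and Ahcy, enzymes of the methyl donor cycle, were higher at 0.44 and 0.84, and 0 of 8 methyl-CpG readers were past 2-fold.

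The genotypes were also compared in the somatic classes. In Sertoli cells 0 of the 8 genes were past 2-fold, against 12.2% of 16866 genes. Tet3 was lower in the knockout library, at 217 and 160 CPM (-0.44, interval -0.49 to -0.39), as was Dnmt3b at 26.9 and 20.9 CPM (-0.36, interval -0.51 to -0.22). Tet1 was higher, at 20.9 and 26.2 CPM (0.33, interval 0.18 to 0.47), and Dnmt1, Uhrf1, Dnmt3a and Tet2 had ratios of -0.03, 0.06, -0.09 and -0.08. Different clusters held most of the class in each library, clusters 4, 9 and 13 in the control and 0, 2 and 5 in the knockout library. Over the 4 Sertoli clusters with at least 100 cells in both, 799 and 2143 cells, the ratio of Tet3 was -0.03 (-0.12 to 0.06) and that of Dnmt3b 0.00 (-0.29 to 0.31), while Tet1 reached 1.01 (0.70 to 1.34) and Uhrf1 -1.05 (-1.54 to -0.55). These clusters have different shares in the libraries, and Tet3 differed in direction among them. It was at 178 CPM (167 to 189) and 149 CPM (140 to 159) in cluster 14, at 224 and 203 in cluster 5, at 155 and 172 in cluster 12 and at 49.7 and 54.7 in cluster 20, and of these 4 clusters the intervals of the libraries were apart in cluster 14 alone.

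Dividing Sertoli cells had more of the copying pair. A cluster led by mitotic and histone genes held 346 Sertoli cells of the knockout library and 8 of the control, and in the knockout cells of it Dnmt1 was at 50.8 CPM and Uhrf1 at 36.0, against 20.3 and 6.20 in the largest Sertoli cluster of that library. Without the dividing cluster the ratios over Sertoli cells were -0.22 for Dnmt1 (-0.38 to -0.06) and -0.54 for Uhrf1 (-0.84 to -0.25), where the whole class had -0.03 and 0.06. Free RNA held transcripts of this pair. Barcodes with 10 to 100 UMIs held 101 CPM of Dnmt1 and 59.4 of Uhrf1 in the control and 43.4 and 29.1 in the knockout library. The share of free RNA in Sertoli cells, read from the lowest marker of another class, was at most 1.03% and 2.39%. Subtracting these shares gave Sertoli ratios of -0.01 for Dnmt1 and 0.06 for Uhrf1, and an assumed 10%, above the measured limit, gave 0.53 and 1.67.

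In the other somatic classes the count past 2-fold was 2 of 8 in Leydig cells, Uhrf1 and Dnmt3l, against 2.56% of all genes, 1 of 8 in peritubular myoid cells, Uhrf1, against 3.59%, and 0 in interstitial stromal cells (3.05%), endothelial cells (3.96%) and macrophages (4.37%). Uhrf1 in myoid cells had 70 UMIs in the control and 33 in knockout cells, or 12.9 and 5.14 CPM (-1.32, interval -1.97 to -0.71), and in Leydig cells 77 and 49 UMIs, or 21.3 and 9.39 CPM (-1.17, interval -1.73 to -0.64). Dnmt3l in Leydig cells had 5 and 0 UMIs, where 0 allows up to 0.575 CPM against 1.38 CPM in the control, and its call comes from the 0.5 added to each count. Stromal cells had 13.1 and 15.3 CPM of Uhrf1 (0.22, interval -0.02 to 0.47). Dnmt3a in myoid cells was higher in the knockout library, at 130 and 166 CPM (0.35, interval 0.21 to 0.49). Dnmt3b was lower in stromal cells, at 7.19 and 4.25 CPM (-0.76, interval -1.15 to -0.37).

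Summed over all cells of a library, 3 of the 8 genes were past 2-fold lower, against 21.8% of 21401 genes in either direction and 14.0% lower. Dnmt1 was at 102 and 38.8 CPM (-1.39), Uhrf1 at 59.3 and 23.0 (-1.37) and Dnmt3b at 37.9 and 14.6 (-1.38). Tet1, Tet2 and Dnmt3a were higher, at 21.6 and 37.0, 37.3 and 58.9, and 115 and 152 CPM. For Dnmt1 and Uhrf1 this sum has the opposite sign to the class of undifferentiated spermatogonia, and all 3 genes past 2-fold were among those higher in germ cells of the control.

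Dnmt1 and Uhrf1 kept to each other across cell types, and less closely to the summed level of 20 replication genes. Single replication genes were not compared over the same units. Over 44 units of 1 cluster in 1 library with at least 50 cells, the levels of Dnmt1 and Uhrf1 had, as log2(CPM + 1), a Pearson r of 0.93 (Spearman rho 0.91), and r was 0.90 over the 36 somatic or unnamed units and 0.84 over the 8 germ units. Against the summed level of 20 replication genes, r over all units was 0.81 for Dnmt1 and 0.83 for Uhrf1 (rho 0.673 and 0.705). Over the 36 somatic or unnamed units r was 0.63 and 0.69 (rho 0.442 and 0.481). Over the 8 germ units, all of which had high replication levels, r was 0.13 and -0.18. Units of 1 library share its free RNA and depth, so these values are descriptions. The unnamed cluster of dividing cells, led by Mxd3 and Pclaf, held 101 CPM of Dnmt1 and 126 of Uhrf1 in the control and 112 and 139 in the knockout library, and the Uhrf1 values lie within the range of the spermatogonial clusters. Dnmt3a and Tet3, by contrast, had an r of 0.73 with each other and of -0.66 and -0.28 with the replication genes.

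**Figure D4:**
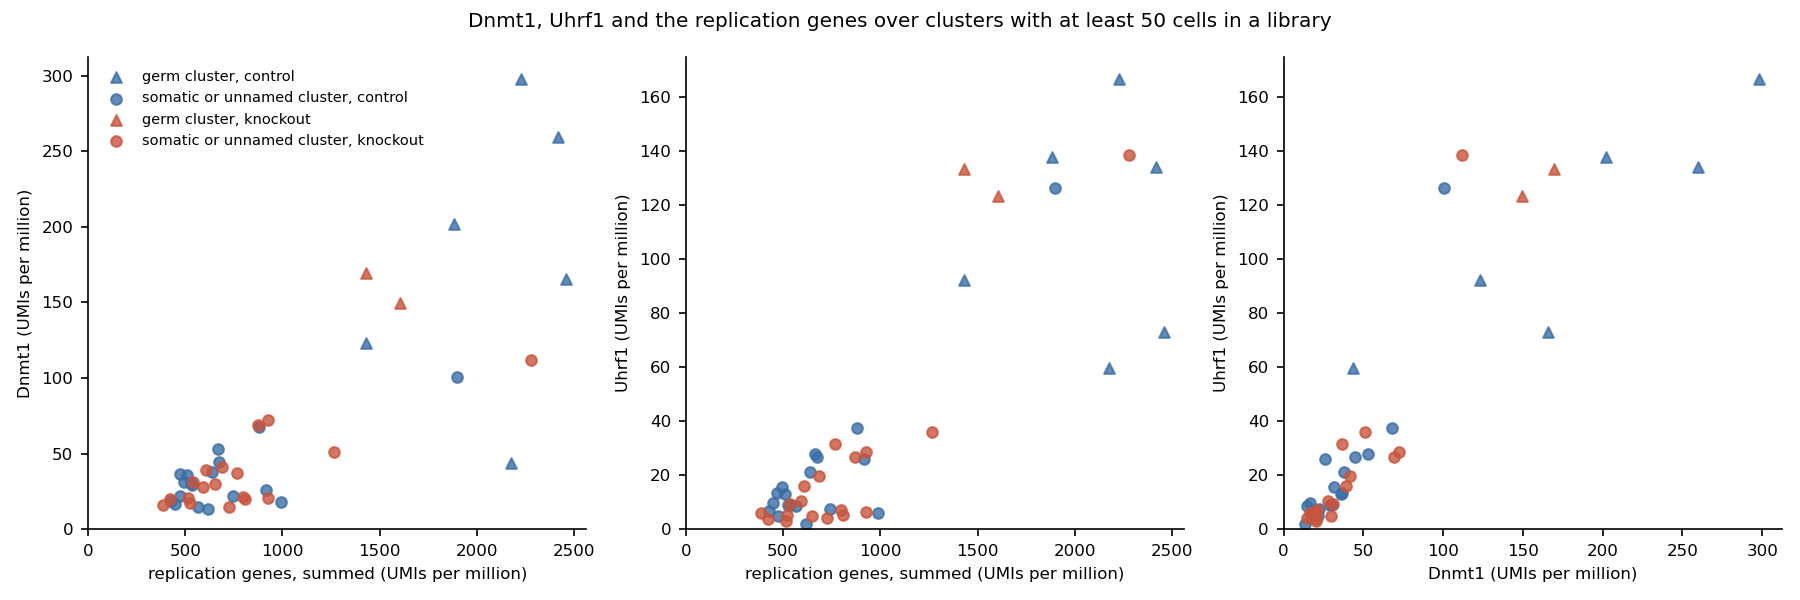
Levels of Dnmt1 and Uhrf1 against the summed level of 20 replication genes, and against each other, in CPM on linear axes, 1 point for each cluster in each library with at least 50 cells. Triangles are germ clusters, circles somatic or unnamed ones, blue the control and red the knockout library. The 2 unnamed circles among the triangles in the right panel are the dividing cluster, at 126 and 139 CPM of Uhrf1.

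Among 12903 genes, those whose levels over 18 class and library pairs were most like each of the 8 were ranked by Pearson r of log2(CPM + 1). The 8 genes were among the 12903 but were left out as candidates, so Uhrf1 could not be listed for Dnmt1, or Dnmt1 for Uhrf1. The nearest to Dnmt1 were Ppil1 (0.98), Clspn (0.97) and Mcm3 (0.97), the last 2 known from DNA replication, and those nearest to Uhrf1 were Nxt1, Ppil1 and Pold1 (0.98, 0.97 and 0.97). Tet2 was most like Il15 (0.98), Anxa6 and Cers2. The neighbours of Tet1 were Nicn1, Ikbip and Zfp618 (0.92 each), and those of Dnmt3a were Zfp362 (0.95), Zfp579 and Trak1 (0.92 each). Dnmt3b was nearest to Dgke, Nckipsd and 2410004B18Rik (0.91 each), and Tet3 to Cdk6 (0.91), Fgf13 (0.84) and Tmem87b (0.80). Dnmt3l, at its low level, reached 0.79 with Pik3c2g, 0.77 with Babam2 and 0.76 with Pou5f1.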

How the data were processed

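Whole testes were profiled in 1 library per genotype. The authors deposited raw UMI counts per gene for all barcodes, written by Cell Ranger 7.1.0 (per the file headers) against mm10 (per the submitters' processing notes); whether introns were counted is not given in the sources used here. Cells had at least 1000 UMIs, 500 genes and at most 20% mitochondrial UMIs, which left 11232 control and 10864 knockout barcodes of libraries with 146528736 and 112746953 UMIs. Scrublet in scanpy 1.11.5 removed 495 (4.41%) and 275 (2.53%); its own threshold marked 0 knockout cells, so the control's served for both. Cells were clustered together on 2000 variable genes, leaving out the 8 genes and their pathway lists (30 principal components, 15 neighbours, leidenalg 0.10.2, resolution 1). A class name needed at least 3 markers that were 1.5-fold higher than elsewhere and present in 20% or more of the cluster, and was dropped where leading genes belonged to another class. Cluster 1 of the stromal class is led by stress genes (Klf2, Dnajb1, Socs3, Hspa1b).

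UMIs were summed per class and library. Log2 ratios have 0.5 added to each count; intervals are exact (Poisson, conditional or Clopper-Pearson, scipy 1.17.1), and a count of 0 allows 3 counts. Past 2-fold means a log2 ratio of 1 or more in size, and the background covers genes with at least 30 UMIs over both sides. Counts simulated for undifferentiated spermatogonia (14844 unchanged genes) gave intervals that held the true ratio in 95.8% of genes. Of 100 genes changed 2-fold, 34.0% passed 2-fold. This check bears on counting error only, and not on spread between animals. Free RNA comes from barcodes of 10 to 100 UMIs. The text names the 8 genes, Psma7, Mki67, stage markers and the 3 genes most like each. Of the pathway lists it names genes among the 2 highest and 2 lowest ratios, not all of which are printed. All lists were chosen with earlier results of these data known. Gene positions are from GENCODE M21 and sequences from RefSeq. Alternatives changed cell filters, doublets, clustering, minimum UMIs and free RNA. Later additions, made once the data had been seen, were the subsets of spermatogonia and of Sertoli clusters, removal of the highest cell, the free RNA estimate and part of the naming rule.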

Additional observations from a re-analysis of the deposited data

Results flagged for a closer look

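For 4 of the 8 genes the ratio of knockout over control had opposite signs in 2 cell classes, with counting intervals on either side of 0. With 1 library per genotype these differences between classes were not tested. How many of all genes meet the same rule was not counted, so the number alone does not set these genes apart. Dnmt1 had a log2 ratio of 0.282 in undifferentiated spermatogonia and -0.493 in peritubular myoid cells, and Uhrf1 had 0.424 and -1.32 in the same classes. For Dnmt3a the values were 0.353 in peritubular myoid cells and -0.369 in differentiating spermatogonia. Tet1 stood at 1.64 in differentiating and -0.457 in undifferentiated spermatogonia, and without the highest cell of each library at 0.74 and -0.31, with intervals that include 0.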

How the results depend on the processing

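In undifferentiated spermatogonia Tet3 had ratios between -1.45 and -1.13 and Dnmt3b between -1.13 and -0.93 over 12 alternatives each. The count past 2-fold there, 2 of 8, was 1 with at most 10% mitochondrial UMIs, 1 of 7 with at least 30 UMIs for a gene and 1 in cells with a Gfra1 UMI; in each of these Dnmt3l, with few UMIs, was no longer counted. It was 3 with ratios centred on the median gene, with 10% subtracted as free RNA, in cells with no Kit or Stra8 UMI and without the highest cell. Dnmt3b passed 2-fold under 4 of its 12 alternatives, at -1.04 centred, -1.13 without Kit or Stra8 UMIs, -1.03 without the highest cell and -1.01 in cells of at least 2000 UMIs. In differentiating spermatogonia the count of 1 became 2 with cells of at least 2000 UMIs. In Sertoli cells the count of 0 became 2 with 10% of UMIs subtracted as free RNA and 3 in the clusters shared by both libraries. From differentiating spermatogonia to meiotic entry the count of 4 became 2 with doublets kept. No ratio that was past 2-fold in the main setting, before any alternative, changed sign under the alternatives run. Ratios in Sertoli cells that were within 2-fold in that setting did pass it in both directions. They ran from -1.05 to 1.67 for Uhrf1 and from -1.23 to 1.07 for Dnmt3l. The background shares in undifferentiated, differentiating and Sertoli cells were 22.3%, 29.3% and 27.1% over genes with at least 1 UMI, and in the first 2 classes 4.71% and 5.59% over genes with at least 100. Clustering each library alone gave no value for either spermatogonial class, because the knockout's germ cells were not so named there. No paired analysis was possible because each genotype has 1 library.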
